A study of Rattus norvegicus with 6 samples.

Results

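The genes described here make, reduce, break down or sense retinoic acid in the rat nucleus accumbens: the enzymes Aldh1a1, Dhrs3 and Cyp26b1 and the receptors Rarb, Rara, Rxrg and Rxra. They were selected by symbol, with their levels across cell classes and their values under saline and naloxone in these data already known, and all 7 were found among the 25629 genes measured. Their levels are therefore given as description with no test, and the fitted naloxone values describe these libraries and are not independent evidence. Adult Sprague-Dawley rats, aged 90 to 120 postnatal days, had self-administered heroin for 7 days at a fixed ratio of 1 and for 4 days at a ratio of 3. A progressive ratio session followed on day 12, and the ratio of 3 returned for days 13 and 14. When self-administration had ended the rats received saline or the opioid receptor antagonist naloxone and were killed 1 h later. Nuclei from frozen punches were sequenced in 6 libraries, saline replicates 1 to 3 and naloxone replicates 4 to 6. Both groups had taken heroin, so no library shows a rat without it. The series holds 12 rats, 6 of each sex, tissue of both sexes is mixed in every library, and the labels do not tie rats to libraries, so p-values measure the spread between libraries only.

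Retinoic acid is a vitamin A derivative that enters the nucleus and binds receptors that sit on DNA. Retinol is oxidized to retinal and then, irreversibly, to retinoic acid by retinaldehyde dehydrogenases such as Aldh1a1; Dhrs3 turns retinal back into retinol, and Cyp26b1 oxidizes retinoic acid for disposal. Retinoic acid receptors (Rara, Rarb) act in pairs with retinoid X receptors (Rxra, Rxrg), and in the striatum Rarb and Rxrg are long known as receptors of projection neurons.

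Rarb is the textbook case of a receptor gene that carries a retinoic acid response element near its own start, a direct repeat of a short half-site with a spacer of 5 bases. The RefSeq promoter window of rat Rarb holds such a repeat, shown here because Rarb is the member that sets 4 neuron classes apart from the rest. The stretch below is on the + strand of build GRCr8, chr15:11336410-11336438, after the annotated start, and the capitals mark the half-sites.

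Rarb: gggaagGGTTCAccgaaAGTTCActcgca

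The repeat covers bases 25 to 41 after the annotated start. The half-site AGGTCA, its variants AGTTCA and GGGTCA, and the variant GGTTCA with both changes were searched on both strands in windows of 300 bases around the starts of 27457 genes. A direct repeat with a spacer of 5 bases was found in 103 windows (0.375%), with a spacer of 2 in 44 (0.16%) and with a spacer of 1 in 69 (0.251%). All 7 members had a window, and 1 of them, Rarb, held a repeat. A match describes letters in the window, not binding of a receptor.

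The authors' matrices held 64260 barcodes where the labels state 44592 nuclei. Filtering on genes and mitochondrial reads left 61609, and removing 2649 likely doublets left 58960 nuclei, with 52759991 to 71790460 unique molecular identifiers (UMIs) per library. Pairs of libraries shared 19 to 45 barcodes, at most 0.408% of the smaller library. The nuclei fell into 41 clusters, built without the retinoid genes, and 44030 of them (74.7%) lay in 16 classes named from marker genes. Spiny projection neurons were found as Drd1-like (6664 nuclei), Drd2-like (5278), Chst9/Grm8-like (3428) and eccentric-like nuclei (1774, marked by Casz1 and Otof), with island-like neurons (1985, marked by Drd3) and a Bnc2/Nxph2-like GABA class (2097) beside them. The interneuron classes were cholinergic (286), somatostatin (597) and Pthlh (897), and the glial, vascular and ventricular ones were astrocytes (4621), oligodendrocytes (11643), their precursors (2203) and committed precursors (376), microglia (1573), endothelial (385) and ependymal nuclei (223). Clusters with 13992 nuclei could not be named, and some of these also joined markers of different cell types. An unnamed cluster of 3200 nuclei, led by Arhgap15, had the microglial marker Inpp5d and spiny markers. Another of 816 nuclei, led by Dock5, had the oligodendrocyte markers Opalin and Mog and spiny markers. A further 938 nuclei lay in 5 clusters set aside as mixed, with markers of more than 1 class. The orders of classes leave out the unnamed and mixed clusters, which held UMIs of every member. Levels are in CPM, the UMIs of a gene per 1000000 UMIs of a class in 1 library, given as mean ± SD over the 6 libraries; at this depth 3 UMIs are taken as the limit that a count of 0 allows, which covers counting error only.

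Rarb, a nuclear receptor that binds retinoic acid itself, was high in 4 of the neuron classes and much lower in the Chst9/Grm8-like spiny class. In Drd1-like nuclei it stood at 2794, 2882 and 2711 CPM in the saline libraries and at 2852, 2912 and 3027 CPM in the naloxone libraries. In Drd2-like nuclei the values were 2725, 2844 and 2719 CPM with saline and 2712, 2783 and 2912 CPM with naloxone. The means, 2863 ± 107 and 2783 ± 81.1 CPM (SD, n = 6), differed by less than the range over libraries, although the Drd1-like value was higher in 5 of 6 libraries.

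Eccentric-like nuclei followed at 2200 ± 119 CPM, below the Drd2-like value in 6 of 6 libraries, and island-like neurons at 2110 ± 128 CPM, with ranges that overlapped. The Chst9/Grm8-like class, marked by the mu opioid receptor gene Oprm1 among others, had 705 ± 55.5 CPM, and the Drd1-like mean was 4.06 times higher. Its 6 libraries ran from 648 to 810 CPM, far below every library of the other spiny classes. Somatostatin nuclei, at 885 ± 179 CPM, overlapped with it. Rarb was 183 ± 31.4 CPM in Bnc2/Nxph2-like nuclei, 159 ± 28 CPM in astrocytes and 129 ± 60.8 CPM in Pthlh interneurons, and it was lowest in cells of the oligodendrocyte line and microglia, 34.6 ± 10.9 CPM in mature oligodendrocytes, 82.8 times below the Drd1-like mean.

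In endothelial nuclei the Rarb level moved in part with a marker of spiny neurons from library to library. These nuclei had 1180, 1293 and 78.0 CPM of Rarb with saline and 427, 983 and 1584 CPM with naloxone, a wider spread than in any spiny class. Rgs9, a signalling regulator and marker of spiny neurons, was at 292, 570 and 15.6 CPM and at 73.4, 291 and 382 CPM in the same libraries. The lowest and the next lowest library were thus the same for both genes. The highest library differed, at 1584 CPM of Rarb with naloxone and 570 CPM of Rgs9 with saline. With all 6 libraries pooled, endothelial nuclei had 3.30 UMIs of Rarb per UMI of Rgs9, a ratio that was uneven over the libraries above. The pooled ratio was 3.18 in Drd1-like and 2.80 in Drd2-like nuclei. In astrocytes this ratio was 6.60 and in somatostatin nuclei 5.52, above the spiny classes. The part that spiny RNA has in these levels was not tested.

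**Figure D1:**
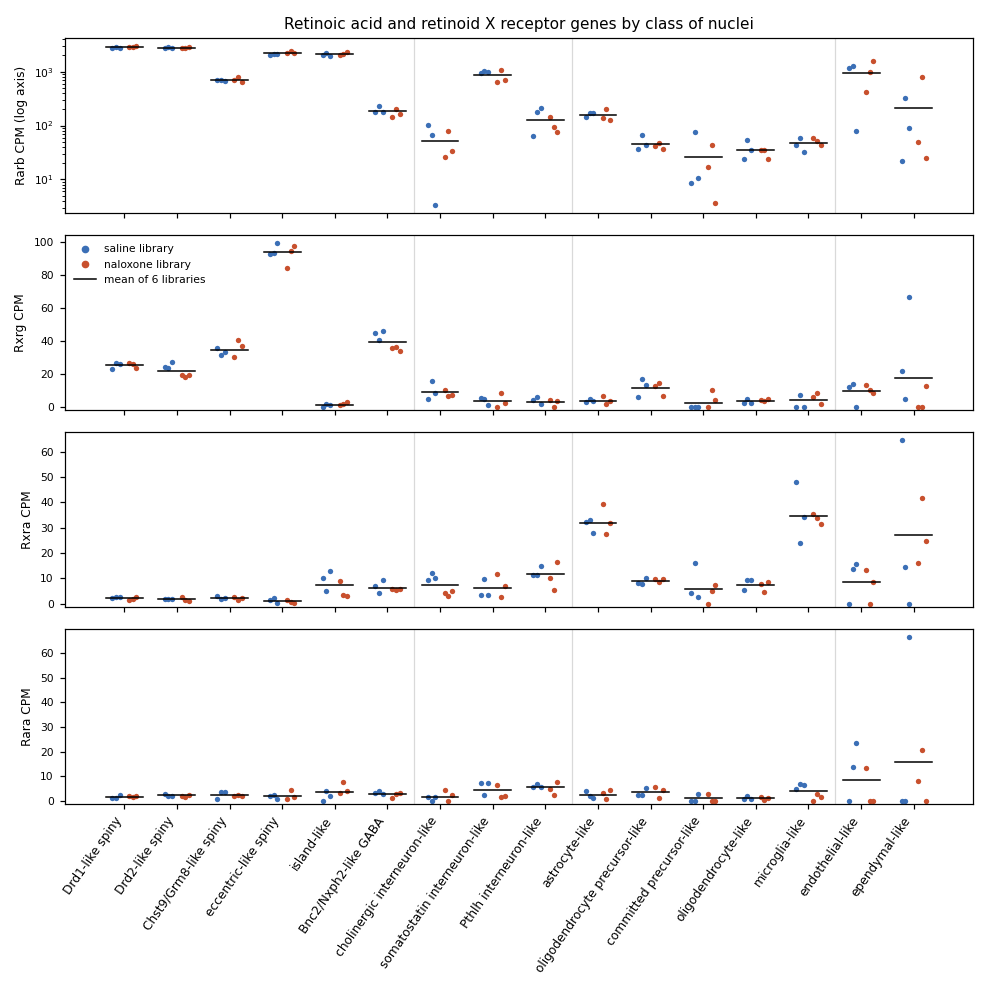
Levels of Rarb (log axis), Rxrg, Rxra and Rara (linear axes) in CPM by class; points are the 6 libraries, blue for saline and red for naloxone, and horizontal lines are the means of the 6 libraries. Rarb is high in Drd1-like, Drd2-like, eccentric-like and island-like nuclei, Rxrg has its top mean in eccentric-like nuclei at 93.8 CPM, and Rxra has higher means in microglia and astrocytes than in any spiny class.

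Within Drd1-like and Drd2-like nuclei, Rarb also differed between clusters. The Drd1-like cluster led by Il20ra had 2982 ± 106 CPM and the one led by Ebf1 had 2673 CPM, with the first higher in 6 of 6 libraries. The main Drd2-like cluster, led by Drd2, had 2861 CPM, and a small one led by Itga11 (438 nuclei) had 1871 ± 122 CPM, so the larger cluster was 1.53 times higher and was higher in 6 of 6 libraries. The 4 highest classes kept their order when depth was made equal. With each nucleus thinned to 1000 UMIs, a Rarb UMI was found in 91.0% of Drd1-like, 90.6% of Drd2-like, 86.6% of eccentric-like and 82.0% of island-like nuclei, beside 37.8% of Chst9/Grm8-like nuclei and 3.17% of oligodendrocytes, which serve as background. Unthinned, the shares were 99.7% of Drd1-like nuclei, with a median of 9228 UMIs, and 4.91% of oligodendrocytes, with a median of 1621.

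Rxrg, the retinoid X receptor long linked to striatal neurons, had a different order. Eccentric-like nuclei had 93.0, 93.5 and 99.5 CPM with saline and 84.2, 94.9 and 97.7 CPM with naloxone, and no library of another class reached these values. Bnc2/Nxph2-like nuclei came next at 39.4 ± 5.12 CPM and Chst9/Grm8-like nuclei at 34.6 ± 3.85 CPM, with overlapping ranges. Drd1-like nuclei had 25.2 ± 1.68 CPM and Drd2-like nuclei 21.8 ± 3.58 CPM, 3.72 and 4.31 times below the eccentric-like mean.

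Island-like neurons, among the highest for Rarb, had the lowest Rxrg level of the 16 classes, 1.16 ± 0.874 CPM from 9 UMIs, 80.8 times below the eccentric-like mean. Thinned to 1000 UMIs, 9.24% of eccentric-like, 2.22% of Drd1-like and 0.134% of island-like nuclei had an Rxrg UMI, beside 0.275% of oligodendrocytes; unthinned, the eccentric-like share was 48.1%. The island-like share was thus at the level of the background class.

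The clusters within a class differed more in Rxrg than in Rarb, and in Drd2-like nuclei in the opposite direction. In the Il20ra-led Drd1-like cluster Rxrg was at 33.8 CPM and in the Ebf1-led one at 11.4 CPM, a ratio of 2.98 that held its direction in 6 of 6 libraries. In the Itga11-led Drd2-like cluster Rxrg was at 62.3 ± 23.4 CPM, 3.42 times the 18.2 ± 1.98 CPM of the Drd2-led one and higher in 6 of 6 libraries. The Itga11-led cluster, lower in Rarb, was thus the higher of the pair in Rxrg.

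Rxra, a broadly expressed partner of many nuclear receptors, had its best-counted high levels in microglia and astrocytes. Microglia had 47.9, 23.8 and 34.3 CPM with saline and 35.5, 33.99 and 31.4 CPM with naloxone. Astrocytes had 32.2, 32.9 and 27.8 CPM with saline and 39.4, 27.5 and 31.7 CPM with naloxone. The ranges of the 2 classes overlapped, with means of 34.5 ± 7.82 and 31.9 ± 4.32 CPM.

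Pthlh interneurons followed at 11.6 ± 3.89 CPM and oligodendrocyte precursors at 8.95 ± 1.01 CPM, while the ependymal mean of 27.0 CPM rested on 12 UMIs. The 4 spiny classes had the lowest Rxra means, from 1.08 CPM in eccentric-like to 2.23 CPM in Chst9/Grm8-like nuclei; the microglial mean was 15.9 times the Drd1-like one. Rara, the other retinoic acid receptor in the group, was sparse in every class. Its highest means, 15.9 CPM in ependymal and 8.38 CPM in endothelial nuclei, rested on 5 and 8 UMIs. The best counted of the higher values was 5.38 ± 1.86 CPM in Pthlh interneurons, from 38 UMIs, beside 1.61 CPM in Drd1-like and 2.12 CPM in Drd2-like nuclei, and every class overlapped in range with the next one in the order.

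Since these receptors act in pairs, nuclei with UMIs of both Rarb and Rxrg were counted after thinning, beside the product of the 2 shares. In eccentric-like nuclei both were found in 144 nuclei, 8.21% against a product of 7.99%. In Drd1-like nuclei both were found in 147, 2.16% against 2.02%, and in Drd2-like nuclei in 100, 1.86% against 1.94%. The observed share was above the product in 5, 6 and 2 of 6 libraries in this order, and the joint counts stayed near what the separate shares give. Most of these nuclei had a Rarb UMI, and the joint share cannot exceed the Rxrg share, 9.24%, 2.22% and 2.14% in this order. An excess over the product thus had little room to appear, and no conclusion on pairing is drawn from these counts. Island-like neurons had 3 nuclei with both Rarb and Rxrg and 12 with both Rarb and Rxra.

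Aldh1a1, which makes retinoic acid from retinal, was highest in astrocytes. The values were 23.8, 26.5 and 60.1 CPM with saline and 60.4, 40.2 and 35.3 CPM with naloxone, above all libraries of the next class. Chst9/Grm8-like spiny nuclei came next, with 10.8, 9.38 and 7.51 CPM with saline and 7.56, 10.96 and 9.39 CPM with naloxone (9.27 ± 1.499 CPM, from 193 UMIs).

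This was 9.27 times the Drd1-like mean of 0.999 CPM, and eccentric-like nuclei stood between them at 2.83 ± 1.25 CPM. The spiny class with the least Rarb was thus the one with the most Aldh1a1. No Aldh1a1 UMI was found in somatostatin nuclei, which allows up to 0.6275 CPM, or in ependymal nuclei, which allows up to 5.445 CPM because they are few.

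The astrocyte level was carried mainly by 1 of 2 clusters. The Lama2-led astrocyte cluster (1120 nuclei) had 68.6, 109 and 143 CPM of Aldh1a1 with saline and 139, 128 and 82.3 CPM with naloxone. The Slc1a2-led cluster (3501 nuclei) had 11.5, 10.1 and 31.4 CPM with saline and 25.8, 7.56 and 12.1 CPM with naloxone. The Lama2-led cluster was 6.81 times higher on average, with no overlap.

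Slc1a2, the main astrocytic glutamate transporter, was at 3670 CPM in the Lama2-led and 9102 CPM in the Slc1a2-led cluster. Gfap, the intermediate filament of fibrous and reactive astrocytes, overlapped, at 166 ± 63.1 and 137 ± 36.8 CPM. Dhrs3 was also higher in the Lama2-led cluster, at 29.98 ± 5.60 against 15.5 ± 4.23 CPM and in 6 of 6 libraries. Rxra was not set apart, at 34.5 and 30.9 CPM and higher in 3 of 6 libraries.

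Dhrs3, the retinal reductase whose gene is itself induced by retinoic acid in many tissues, had its highest levels in endothelial nuclei, microglia, ependymal nuclei and astrocytes. Endothelial nuclei had 41.8 ± 30.5 CPM from 36 UMIs, between 13.4 and 100 CPM. Microglia had 27.3 ± 10.2 CPM from 65 UMIs and astrocytes 19.3 ± 2.62 CPM from 243 UMIs, with ependymal nuclei between them at 21.2 ± 14.6 CPM from 11 UMIs, and neighbours in this order overlapped in range. The astrocyte mean was 6.20 times the Drd1-like mean of 3.11 CPM.

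Somatostatin nuclei had 11.5 ± 7.98 CPM, Pthlh interneurons 3.65 CPM, eccentric-like nuclei 2.77 CPM and Drd2-like nuclei 2.37 CPM. The Chst9/Grm8-like mean was 0.701 CPM, from 15 UMIs, and the island-like mean 0.104 CPM, from 1 UMI. None was found in cholinergic nuclei, which allows up to 0.753 CPM.

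**Figure D2:**
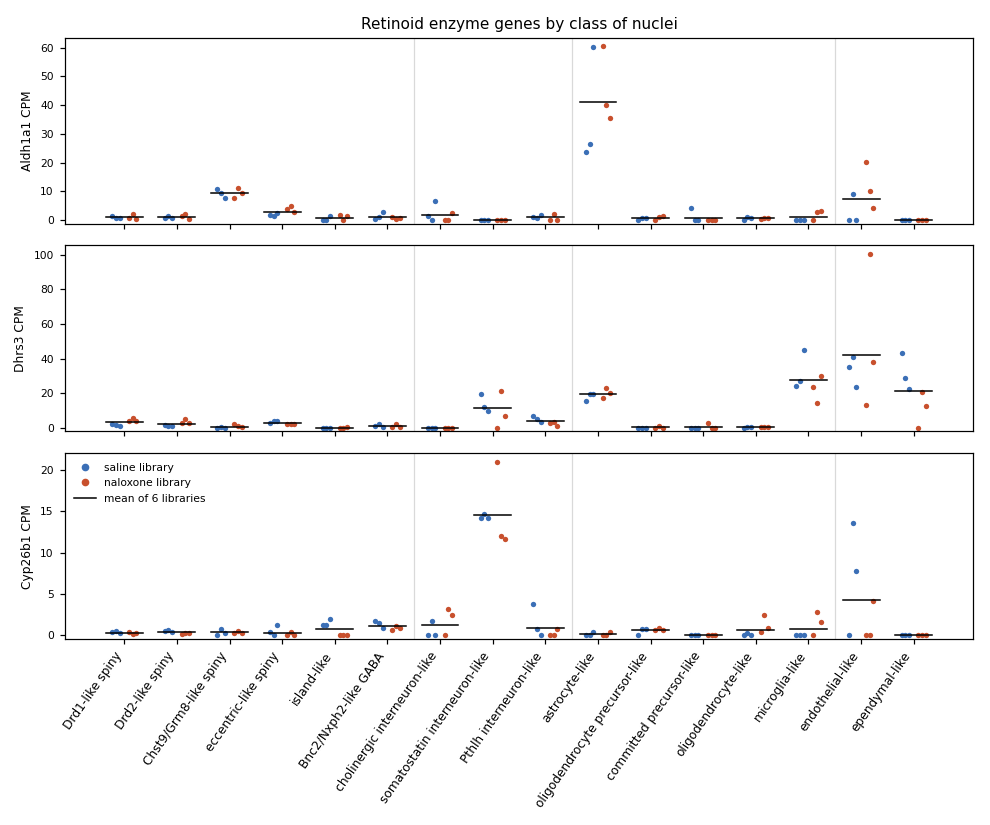
Levels of Aldh1a1, Dhrs3 and Cyp26b1 in CPM by class, on linear axes; points are the 6 libraries, blue for saline and red for naloxone, and horizontal lines are the means of the 6 libraries. Aldh1a1 has its top mean in astrocytes with Chst9/Grm8-like nuclei next, Dhrs3 is highest in endothelial nuclei, microglia, ependymal nuclei and astrocytes, and Cyp26b1 stands out in the somatostatin class.

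Cyp26b1, which clears retinoic acid, was sparse in all nuclei together, with 272 UMIs, and had its highest level in the somatostatin class. There it was at 14.1, 14.7 and 14.2 CPM with saline and 21.0, 12.0 and 11.6 CPM with naloxone, from 69 UMIs. Endothelial nuclei had 4.26 CPM from 5 UMIs, and the other 14 classes had means of 1.22 CPM or less, with none in committed precursors and ependymal nuclei.

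The nuclei with Cyp26b1 were, however, not the ones with the most somatostatin. In a coarser clustering 469 of the 597 nuclei stayed together, and they held 4 of the 69 Cyp26b1 UMIs, or 1.21 CPM over all libraries. A further 112 nuclei moved to an unnamed cluster led by Sema3c and held 65 of the UMIs, or 49.9 CPM. By library these 112 had 66.6, 73.7 and 43.1 CPM with saline and 47.9, 44.6 and 42.1 CPM with naloxone, and 39 of them (34.8%) had a Cyp26b1 UMI.

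The 2 sets also differed in other genes, as counted over all libraries. Sst was at 180 CPM, Npy at 215 CPM and Nos1 at 588 CPM in the nuclei that stayed, and at 14.6, 16.1 and 18.4 CPM in those that moved. Rarb was at 1221 CPM in the nuclei that stayed and at 66.8 CPM in those that moved, and Dhrs3 had 50 UMIs in the first and 1 in the second. Rarb and Dhrs3 thus lay with Sst, Npy and Nos1, and Cyp26b1 lay in the other set.

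**Figure D3:**
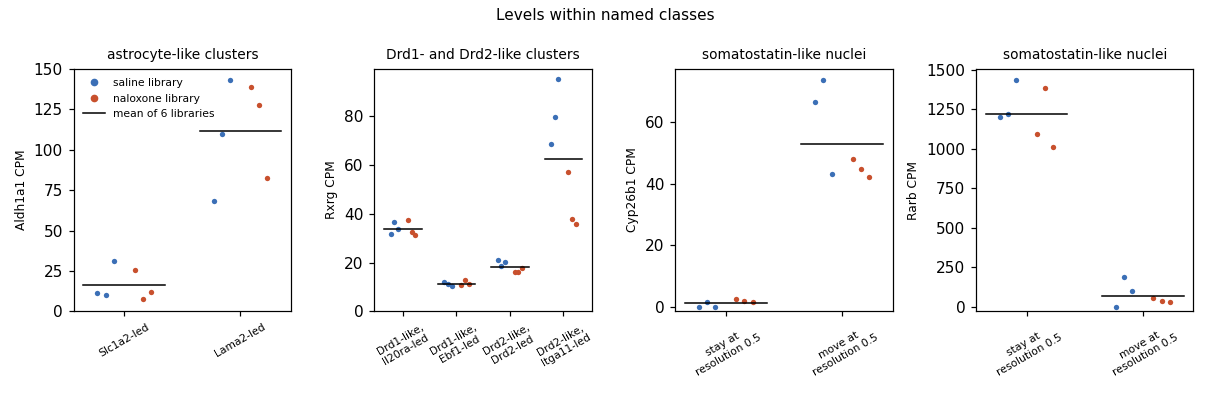
Levels in CPM within classes: Aldh1a1 in the astrocyte clusters, Rxrg in the Drd1-like and Drd2-like clusters, and Cyp26b1 and Rarb in the somatostatin nuclei that stay together or move to the Sema3c-led cluster at a clustering resolution of 0.5; points are the 6 libraries, blue for saline and red for naloxone, and horizontal lines are their means. Aldh1a1 is higher in the Lama2-led astrocyte cluster, Rxrg in the Il20ra-led and the Itga11-led cluster, Cyp26b1 in the nuclei that move and Rarb in those that stay.

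Over the 16 classes, 13244 genes outside the retinoid list could be compared with each member by the Pearson correlation of log2(mean CPM + 1). Rarb was most alike to Rgs9 (r = 0.946), Kcnip2 (0.940) and Htr6 (0.922), and Rxrg to Enox2 (0.842), Ldb2 and Necab1. Rxra was most alike to Galnt1 (0.942), Xpo1 and Pnpla7, Aldh1a1 to Lama2 (0.837), S100a14 and Fut2, and Dhrs3 to Pltp (0.866), Faxdc2 and Htra3. For Cyp26b1 the nearest were Npsr1 (0.913), Pelp1 and Cryba1, and for Rara, which rests on few UMIs, Cmpk2 (0.932), Gas6 and Polr3k. Npsr1 and Cyp26b1 lay mostly in different sets of the somatostatin class, however. Npsr1 was at 266 CPM in the nuclei that stayed together in the coarser clustering and 22.3 CPM in those that moved. Cyp26b1 was at 1.2 and 49.9 CPM in the same sets. The classes share their libraries, and these correlations are a description over 16 points.

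Naloxone was compared with saline on UMIs summed per library and class, with edgeR's quasi-likelihood test over all genes of a class and Benjamini-Hochberg adjustment. Members reached the test in 39 combinations of gene and class out of 15 classes tested. The member with a change past the threshold of 0.05 was Dhrs3 in Drd1-like nuclei, which rose. It was at 2.16, 1.64 and 1.15 CPM with saline and at 4.06, 5.71 and 3.95 CPM with naloxone, from 23, 21 and 14 UMIs and from 32, 68 and 49 UMIs.

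All 3 naloxone libraries lay above all 3 saline libraries. The log2 change was 1.48 (SE 0.26, 95% interval 0.91 to 2.05, adjusted p = 0.0415 by edgeR, and 0.0484 when adjusted over all classes together). As background, 34 of 13301 genes (0.256%) passed in Drd1-like nuclei, and 1199 (9.01%) had all 3 naloxone libraries above all 3 saline libraries. Leaving out any 1 of the 6 libraries ended the call, with log2 changes between 1.28 and 1.71 and adjusted p between 0.0591 and 0.213 by edgeR, and DESeq2 gave a log2 change of 1.47 with no adjusted p.

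Drd2-like nuclei showed values of similar size. Dhrs3 was at 1.43, 1.12 and 0.946 CPM with saline (10, 11 and 9 UMIs) and at 2.75, 5.24 and 2.72 CPM with naloxone (16, 43 and 22 UMIs), again with no overlap. The log2 change was 1.67 (SE 0.35, 95% interval 0.91 to 2.43), and its adjusted p of 0.0502 by edgeR missed the threshold. Without naloxone replicate 4 it passed, with an adjusted p of 0.0458 by edgeR. There 92 of 12569 genes (0.732%) passed, and 972 (7.73%) had all 3 naloxone libraries above all 3 saline libraries. The difference between the 2 classes was 0.16 on the log2 scale (95% interval -0.59 to 0.92, adjusted p = 0.943 by edgeR).

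Naloxone replicate 5 was the highest library in both classes. The Drd1-like clusters divide the nuclei of that class in the same libraries, so their values are not further evidence. Within each of them all naloxone libraries lay above all saline libraries. The share of all genes with this order was not counted in the clusters. In the Ebf1-led one Dhrs3 was at 3.93, 2.22 and 0.999 CPM with saline and 6.72, 11.2 and 4.32 CPM with naloxone, and in the Il20ra-led one at 0.686, 1.27 and 1.22 CPM against 2.18, 3.01 and 3.72 CPM. An unnamed cluster with spiny markers, led by Dnah11, had 0, 1.21 and 0 CPM with saline and 2.64, 4.54 and 2.43 CPM with naloxone. Other unnamed clusters also had spiny markers and are not given here. In Chst9/Grm8-like nuclei, with 15 UMIs in all and no test, the values were 0, 0.536 and 0 CPM against 2.04, 1.15 and 0.482 CPM.

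Eccentric-like nuclei had the opposite order. Dhrs3 was at 2.60, 3.64 and 3.72 CPM with saline and 2.26, 2.37 and 2.01 CPM with naloxone, with no overlap, and its counts were too low for a test within this class. The same order was seen on fewer UMIs in Pthlh interneurons, with 6.62, 5.20 and 3.28 CPM against 2.78, 3.2 and 0.827 CPM (25 UMIs), and in ependymal nuclei, with 43.1, 28.9 and 22.2 CPM against 0, 20.8 and 12.4 CPM (11 UMIs), and was not tested there. How many of all genes had every naloxone library below every saline library was not counted in these classes. In a fit added after these values were seen, the naloxone change of Dhrs3 in eccentric-like nuclei was set against that in Drd1-like nuclei. It differed by -2.13 on the log2 scale (95% interval -3.21 to -1.05, adjusted p = 0.202 by edgeR). Against Drd2-like nuclei the difference was -2.29 (95% interval -3.46 to -1.12, adjusted p = 0.0579 by edgeR). Neither passed over all genes, where 79 of 25192 tests (0.314%) in these 2 pairs of classes did. The pairs were chosen on these values, and Dhrs3 entered the fits although its counts were too low in eccentric-like nuclei alone. The differences are therefore a description and not further evidence.

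Dhrs3 was higher in astrocytes, microglia and endothelial nuclei than in spiny neurons, and lower in oligodendrocytes (0.284 CPM). The marker lists of these cells were summed in the same nuclei. In Drd1-like nuclei the 7 astrocyte markers summed to 545 to 601 CPM with saline and 504 to 603 CPM with naloxone, the 7 oligodendrocyte markers to 118 to 164 and 121 to 199 CPM, and the 7 microglial markers to 24.1 to 26.3 and 23.1 to 29.2 CPM. The 6 endothelial markers summed to 6.06 to 9.27 CPM with saline and 7.75 to 9.66 CPM with naloxone. All these ranges overlapped between the groups. In Drd2-like nuclei the sums also overlapped, with astrocyte markers at 559 to 600 and 488 to 576 CPM, oligodendrocyte markers at 117 to 184 and 122 to 212 CPM, microglial markers at 19.8 to 23.5 and 20.5 to 24.9 CPM and endothelial markers at 6.45 to 9.55 and 6.36 to 9.39 CPM. The part of other cells' RNA in the Dhrs3 values was not tested further.

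**Figure D4:**
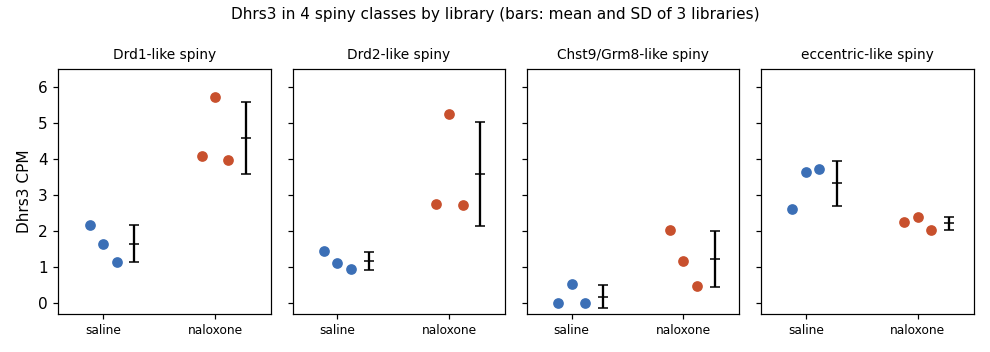
Dhrs3 in CPM in 4 spiny classes, with 1 point per library, saline in blue and naloxone in red; the bars beside the points are the mean and SD of the 3 libraries of a group. All 3 naloxone points lie above all 3 saline points in Drd1-like and Drd2-like nuclei, and all 3 lie below in eccentric-like nuclei.

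Rxrg was lower with naloxone in 2 classes without passing the test. In Drd2-like nuclei it was at 24.1, 23.5 and 26.9 CPM with saline and at 19.1, 17.7 and 19.4 CPM with naloxone. The groups did not overlap, and the log2 change was -0.39 (SE 0.12, adjusted p = 0.156 by edgeR). The share of all genes with every naloxone library below every saline library was not counted, here or in Bnc2/Nxph2-like nuclei. The same order held in the Itga11-led cluster, with 68.6, 79.6 and 95.1 CPM against 57.0, 37.9 and 35.7 CPM, and in the Drd2-led one, with 20.9, 18.5 and 20.1 CPM against 16, 16.3 and 17.6 CPM. These clusters divide the Drd2-like nuclei of the same libraries and are not further evidence.

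In Bnc2/Nxph2-like nuclei Rxrg was at 44.8, 40.5 and 45.9 CPM with saline and 35.6, 36.0 and 33.7 CPM with naloxone, a log2 change of -0.33 (SE 0.12, adjusted p = 0.471 by edgeR). Drd1-like nuclei showed overlapping values, 22.7, 26.7 and 26.0 CPM against 26.3, 26.0 and 23.5 CPM. The change in Drd2-like nuclei differed from that in Drd1-like nuclei by -0.38 (adjusted p = 0.184 by edgeR) and the Chst9/Grm8-like one from the Drd2-like one by 0.52 (adjusted p = 0.214 by edgeR), so neither difference passed. Over the 3 pairs among these classes, 230 of 39477 tests (0.583%) passed; none of the 18 on members did, with 2 at an unadjusted p under 0.05, and no other tool was run on them.

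Rarb was close to level in the neurons where it is highest. Its log2 change with naloxone was 0.06 in Drd1-like (95% interval -0.08 to 0.21) and 0.04 in Drd2-like nuclei (-0.10 to 0.18). It was 0.12 in eccentric-like (-0.03 to 0.27), 0.08 in island-like (-0.1 to 0.27) and 0.06 in Chst9/Grm8-like nuclei (-0.1 to 0.22). In eccentric-like nuclei the groups did not overlap, at 2117 ± 59.1 CPM with saline and 2283 ± 107 CPM with naloxone. The adjusted p there was 0.621 by edgeR, and the share of all genes with this order was not counted. In the somatostatin class it was at 949, 1007 and 981 CPM with saline and 632, 1052 and 688 CPM with naloxone, a log2 change of -0.30 (adjusted p = 0.814 by edgeR). The nuclei of that class that moved to the Sema3c-led cluster in the coarser clustering hold little Rarb. They numbered 11, 18 and 20 in the saline and 32, 16 and 15 in the naloxone libraries. In the nuclei that stayed with Sst the values overlapped, as in the whole class, at 1200, 1218 and 1436 CPM against 1093, 1382 and 1010 CPM. The part that the number of nuclei of each set has in the class values was not tested. In Pthlh interneurons the log2 change was -0.56 (adjusted p = 0.661 by edgeR).

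**Figure D5:**
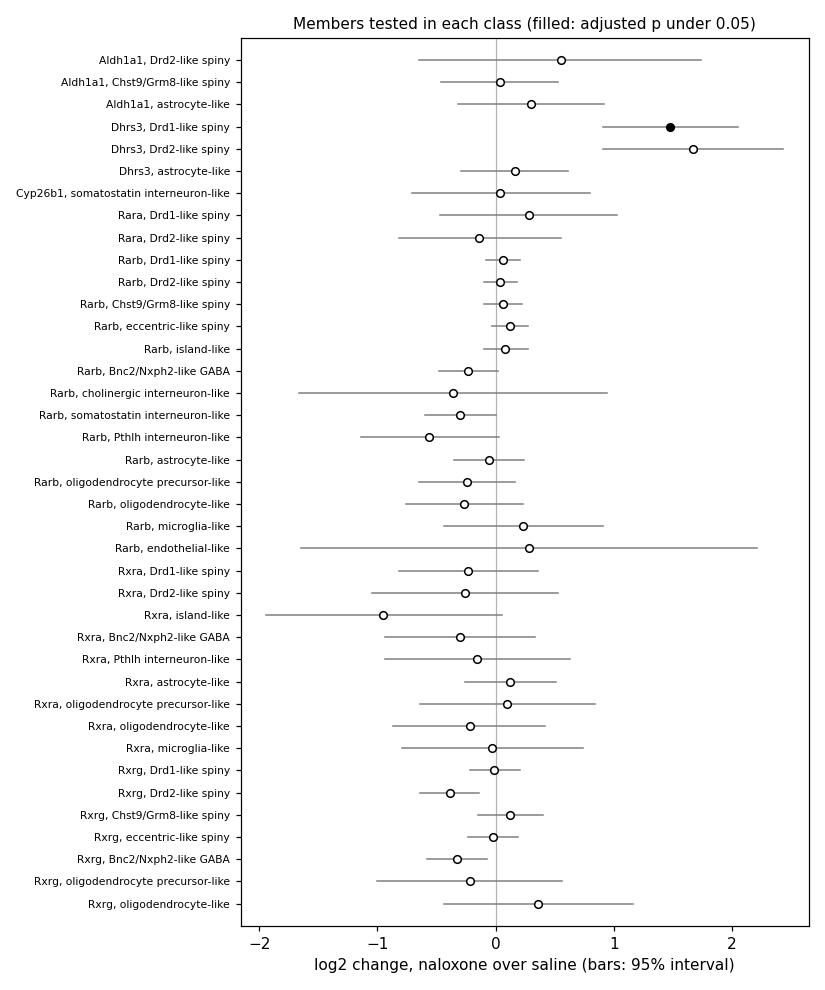
Log2 change with naloxone for each member in each class where it was tested by edgeR; circles are the fitted changes, filled where the adjusted p was under 0.05, and lines are the 95% intervals. Dhrs3 in Drd1-like and Drd2-like nuclei lies at 1.48 and 1.67, Rarb in the spiny classes lies between 0.04 and 0.12, and Rxrg in Drd2-like nuclei lies at -0.39.

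In all, 1 of the 39 member tests passed, and 5 (12.8%) had an unadjusted p under 0.05, beside 9.17% of all tests of genes in classes; 413 of 138561 (0.298%) of those passed. Summed over all nuclei of a library, which also moves with the share of each class, none of the 7 members passed by edgeR or by DESeq2 and none had an unadjusted p under 0.05 by edgeR. Dhrs3 had a log2 change of 0.43 there (adjusted p = 0.360 by edgeR) and Rarb one of -0.13, and 6 of 17357 genes (0.0346%) passed.

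The other genes of the pathway showed no call. Of 55 listed, 52 were matched and 39 were tested in at least 1 class; none of 336 tests passed by edgeR or by DESeq2, and 24 (7.14%) had an unadjusted p under 0.05 by edgeR. By role, none of 118 tests on 8 coregulators, 56 on 7 receptor partners, 75 on 11 retinol and retinal enzymes, 23 on 6 uptake and binding genes, 16 on 2 other receptors and 48 on 5 genes induced by retinoic acid passed by edgeR, with 7, 4, 3, 2, 0 and 8 at an unadjusted p under 0.05. The smallest unadjusted p was that of Nr4a1, an orphan receptor that pairs with retinoid X receptors and an immediate early gene, in Drd1-like nuclei, with a log2 change of -0.76 (SE 0.22, adjusted p = 0.196 by edgeR). In Drd2-like nuclei, Rdh10, which oxidizes retinol to retinal, had a log2 change of -0.54 (adjusted p = 0.161 by edgeR), and Meis2, a homeobox gene of striatal neurons, one of 0.24 (adjusted p = 0.1597 by edgeR).

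Sex was not used to choose the members. Nuclei were assigned from Xist and 5 Y-linked genes, 23748 as female and 18874 as male, and compared within libraries in 12 classes by edgeR. Left out were 12050 nuclei with UMIs of neither Xist nor the Y-linked genes and 4288 nuclei with UMIs of both. None of 27 member tests passed by edgeR or by DESeq2, and 3 (11.1%) had an unadjusted p under 0.05 by edgeR, beside 5.01% of all tests in this comparison. These were Rarb in Pthlh interneurons (female over male, log2 0.59, adjusted p = 0.999 by edgeR), Rarb in the somatostatin class (-0.29, adjusted p = 0.953) and Rxrg in Bnc2/Nxph2-like nuclei (0.30, adjusted p = 1 by edgeR). Over all genes 110 of 104693 tests (0.105%) passed.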

How the data were processed

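Nuclear RNA of 6 libraries (10x Genomics GEM-X 3' chemistry) was measured. The deposited values are raw UMI counts per gene and barcode that the authors made with Cell Ranger 9.0.1, per the file headers, on build mRatBN7.2, per the submitters' processing notes, which also list Seurat 5.2.1 and R 4.4.0; the annotation release is not given in the sources used here. The members and gene lists were chosen with earlier results of these data known. Nuclei needed at least 500 genes and no more than 5% mitochondrial UMIs, and likely doublets (0.4% expected per 1000 nuclei) were removed. Clustering used scanpy 1.11.5 and leidenalg 0.10.2 on Python 3.11.15 (3000 variable genes, 40 components, 15 neighbours, resolution 1.0), without the retinoid genes, Xist, Y-linked and mitochondrial genes. Clusters were named from marker genes with thresholds set after the clusters were seen, so class names are rebuilt and not the authors'. Counts were summed per library and class, in classes with at least 20 nuclei in every library. They were tested with edgeR 4.0.16 (quasi-likelihood, TMM, filterByExpr, Benjamini-Hochberg, on R 4.3.3 with limma 3.58.1), with DESeq2 1.42.0 as an alternative. The edgeR fit of naloxone within classes was also run on simulated data, and the other fits were not. The sex and class difference fits had the library as a block. Shares of nuclei were taken after thinning each to 1000 UMIs. Other alternatives were other size factors, no filter, at least 1000 genes, doublets kept, a marker gate, a clustering resolution of 0.5 and leaving out each library. Of the other retinoid genes, those past the threshold or highest of their role in a class were to be named, and for each member the 3 genes most alike among those with at least 10 CPM in a class; Nr4a1 and Rdh10, which fall outside that rule, were singled out after their values were seen, as were Oprm1, Rgs9 and the clusters within classes. RefSeq promoter sequences were on build GRCr8.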

Additional observations from a re-analysis of the deposited data

How the results depend on the processing

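No paired analysis was possible because the saline libraries (1 to 3) and the naloxone libraries (4 to 6) share no replicate number. Within classes, 1 member test passed with all libraries; the count was 0 by DESeq2 (43 of 102 adjusted p-values were not given) and with a marker gate, where Dhrs3 in Drd1-like and Drd2-like nuclei was not tested, 2 with other size factors (RLE), with at least 1000 genes and with doublets kept, 3 with no filter, and 0 to 1 with 1 library left out. The added calls were Dhrs3 in Drd2-like nuclei (adjusted p by edgeR 0.0492, 0.0490 and 0.0487) and, with no filter, Rarb in Pthlh interneurons (0.0200). Genes called within classes numbered 413, and 151 with the marker gate (9 classes), 2106 with no filter and 113 to 471 with 1 library left out. Over all nuclei 6 genes were called, and 369 by DESeq2, 0 with at least 1000 genes, 14 with doublets kept, 39 with no filter and 0 to 252 with 1 library left out; members stood at 0 in each. For the class difference 230 genes were called with the library as a replicate block and 8 without it, with 120 to 373 when 1 library was left out; for the added pairs the counts were 79, 7 and 51 to 111, and for sex 110, 87 and 101 to 148. Members stood at 0 in all of these. Rarb in Drd2-like nuclei had log2 changes of -0.01 to 0.06 with 1 library left out, below 0 without naloxone replicate 6. The class with the highest mean was kept by 4 of 7 members at resolution 0.5, where eccentric-like and ependymal nuclei were not named, and by 3 of 7 with the marker gate. In that gate Rarb was highest in Drd2-like nuclei and Cyp26b1 in Pthlh interneurons. The cause of these shifts was not tested.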

Other observations

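Among the other genes of the pathway, the highest levels lay in several classes. Stra6, the membrane receptor that takes up retinol from its carrier, was highest in endothelial nuclei at 38.7 ± 24.1 CPM (SD, n = 6), from 32 UMIs. Aldh1a2, another enzyme that makes retinoic acid, also had its highest mean there, 5.20 CPM, from 5 UMIs. Dhrs7, a short-chain dehydrogenase, was highest in ependymal nuclei at 170 ± 51.1 CPM. Rarg, the retinoic acid receptor outside the member list, was highest in astrocytes at 30.04 ± 4.70 CPM. Thra, the thyroid hormone receptor that pairs with retinoid X receptors, was highest in committed oligodendrocyte precursors at 371 ± 37.9 CPM. Ncoa3, a receptor coactivator, was highest in microglia at 1010 ± 176 CPM. Meis2 was highest in Chst9/Grm8-like spiny nuclei at 2278 ± 168 CPM, with eccentric-like nuclei at 2248 ± 188 CPM and overlapping ranges.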
